A study of Mus musculus with 8 samples.

Results

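The amino acid stress programme driven by the transcription factor ATF4 was followed in mouse melanoma cells through a list of 48 genes, picked by their known roles. Of these, 46 had a named probe on the array, 38 had a probe detected on at least 2 of 8 arrays and were tested, and 8 were not detected often enough. The tested members were 12 of 13 regulators and stress effectors, 7 of 9 serine and one-carbon enzymes, 5 of 7 other amino acid enzymes, 4 of 7 transporters and 10 of 12 tRNA synthetases, within 7357 genes tested in all.

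The cells were 5555-mEGFP, a mouse melanoma line that expresses a green fluorescent protein. They were grown alone (mono-culture) or together with MAF2-mCherry, red fluorescent fibroblasts associated with melanoma (co-culture), and the green fraction was then collected by FACS. Each culture received DMSO at 0.1% or PLX4720, an inhibitor of mutant BRAF, for 24 h, at a dose that the labels give as 1 mM and that may have been meant as micromolar. This made 4 groups of 2 arrays: mono-culture with DMSO, co-culture with DMSO, mono-culture with PLX4720 and co-culture with PLX4720. All cells were of 1 line, and whether mono-cultures were sorted too is not given in the sources used here. No source states that the arrays of a group came from separate cultures, so each p-value reflects the spread between arrays, which may be technical.

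ATF4 is made when the translation factor eIF2 is phosphorylated by kinases that sense a lack of amino acids, unfolded protein, a lack of haem or double-stranded RNA, a state known as the integrated stress response. With C/EBP partners it switches on genes that import amino acids, make serine, asparagine and proline, and charge tRNAs. Control of ATF4 is largely at translation, so the mRNA of Atf4 and the activity of the protein need not move together. Serine and folate enzymes feed one-carbon units into purine and thymidylate synthesis, and PHGDH, the first enzyme of serine synthesis, is amplified in some human melanomas.

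The best known DNA element of this programme is the C/EBP-ATF response element, and its core was searched for as TGATGNAA, with N for any base, on both strands of RefSeq promoters (GRCm38.p6, from 250 bases before to 50 bases after each start). A promoter was found for 38 of the 48 members, tested or not. Of these 38, 13 held the core, against 4.51% of all 27025 genes with a promoter and 2.72% of the 6068 tested genes with one. The core was found in 5 of 8 tRNA synthetases (Aars, Gars, Iars, Tars and Yars), 3 of 6 other amino acid enzymes (Asns, Got1 and Pycr1), 4 of 12 regulators and stress effectors (Chac1, Nupr1, Trib3 and Vldlr), 1 of 4 transporters (Slc1a4) and 0 of 8 serine and one-carbon enzymes. A match is a description of letters, not evidence of binding, and its absence says only that these letters were not in this window. Printed here are 5 promoters with a match, because their genes went different ways on the arrays: Nupr1 was higher with PLX4720 in mono-culture, Iars and Got1 were lower there, Chac1 was lower with PLX4720 in co-culture, and the brightest probe of Asns passed in no comparison. Each runs 5′ to 3′ on the strand of the gene, and capitals mark the match, which reads TTGCATCA where the core lies on the other strand.
Nupr1, chr7:126625421-126625720, minus strand: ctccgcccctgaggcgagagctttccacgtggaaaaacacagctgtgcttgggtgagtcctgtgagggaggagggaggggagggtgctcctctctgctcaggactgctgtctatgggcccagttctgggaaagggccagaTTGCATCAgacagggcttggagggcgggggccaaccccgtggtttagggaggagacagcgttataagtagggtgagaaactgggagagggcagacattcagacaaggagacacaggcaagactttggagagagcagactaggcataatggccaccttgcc
Chac1, chr2:119350992-119351291, plus strand: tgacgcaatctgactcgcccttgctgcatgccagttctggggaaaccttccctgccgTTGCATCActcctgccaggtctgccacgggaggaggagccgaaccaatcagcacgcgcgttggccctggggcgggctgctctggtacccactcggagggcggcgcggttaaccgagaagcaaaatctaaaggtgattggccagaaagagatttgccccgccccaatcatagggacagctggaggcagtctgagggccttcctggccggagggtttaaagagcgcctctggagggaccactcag
Asns, chr6:7693160-7693459, minus strand: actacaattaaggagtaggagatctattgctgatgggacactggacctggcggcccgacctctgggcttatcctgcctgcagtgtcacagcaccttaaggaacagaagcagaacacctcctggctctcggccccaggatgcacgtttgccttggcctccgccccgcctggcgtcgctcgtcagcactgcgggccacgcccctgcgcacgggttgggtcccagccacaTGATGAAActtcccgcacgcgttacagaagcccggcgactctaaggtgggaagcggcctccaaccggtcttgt
Got1, chr19:43524556-43524855, minus strand: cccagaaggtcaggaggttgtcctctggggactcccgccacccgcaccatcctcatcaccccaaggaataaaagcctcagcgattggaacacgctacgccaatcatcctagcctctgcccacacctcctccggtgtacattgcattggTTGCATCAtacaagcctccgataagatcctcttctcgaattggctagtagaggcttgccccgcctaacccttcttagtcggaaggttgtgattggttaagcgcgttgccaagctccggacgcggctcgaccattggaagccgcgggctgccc
Iars, chr13:49681880-49682179, plus strand: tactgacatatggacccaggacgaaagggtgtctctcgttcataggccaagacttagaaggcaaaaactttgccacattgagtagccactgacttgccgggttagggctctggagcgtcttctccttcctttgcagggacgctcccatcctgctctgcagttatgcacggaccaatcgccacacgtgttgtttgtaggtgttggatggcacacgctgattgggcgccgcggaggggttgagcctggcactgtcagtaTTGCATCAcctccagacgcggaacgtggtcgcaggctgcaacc

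The match began 110 bases before the start in Nupr1, 193 in Chac1, 102 in Got1 and 23 in Asns, and lay after the start in Iars. Of the 11 tested members with the core, 2 passed as higher and 3 as lower with PLX4720 in mono-culture (45.5%). Of 19 tested members whose promoters lacked it, 4 passed as higher, Slc38a2 among them by its brightest probe, and 5 as lower (47.4%), where 38.7% of all genes passed. In co-culture the counts were 1 and 2 with the core (27.3%) and 1 and 4 without it (26.3%), where 27% of all genes passed. The median log2 fold change with PLX4720 in mono-culture was -0.11 with the core and -0.05 without it.

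On each array 37.96% to 39% of 25697 probes were detected, and replicate arrays correlated across genes with r of 0.990 to 0.995. The line was checked against its type: of 10 melanocyte markers with a probe, only Gpnmb was detected on any array, so that Mitf, Pmel, Dct, Tyr, Tyrp1 and Mlana, which define pigment cells, were not detected in any group. Of 19 fibroblast markers with a probe, 8 to 11 were detected on the DMSO arrays and 12 on each PLX4720 array, with a summed signal of 6833 to 7764 on DMSO arrays and of 13213 to 19089 on PLX4720 arrays, mono-cultures included. Dcn, Lum, Fap, Thy1, Postn, Col6a2 and Dpt were not detected in any group. Of the 12 fibroblast markers tested, 7 passed as higher with PLX4720 in each culture (Col1a1, Col1a2, Col3a1, Cd248, Pdgfrb, Acta2 and Col6a1), Twist2 passed as lower, and Pdgfra, Fbln1, Fbln2 and S100a4 did not pass. Of all genes tested, 20.2% passed as higher and 18.6% as lower in mono-culture, and 14.3% and 12.7% in co-culture. Col1a1 was detected on PLX4720 arrays only, so it was tested through the groups where it is high. Col1a2 and Col6a1 were detected on no co-culture DMSO array. The larger sum came with Acta2, and without that gene the sums were 6381 to 7259 on DMSO arrays and 6085 to 7874 on PLX4720 arrays. The part of these genes in the drug comparisons of the members was not tested. The RNA is of bulk cells, where fewer cells of a type and less RNA per cell cannot be told apart.

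With PLX4720 the members that passed differed by role. Those among the serine, one-carbon and tRNA charging enzymes, Shmt1, Mthfd1 and Iars among them, were all lower. Those among the regulators and stress effectors, such as Ddit4 and Vldlr, were higher in mono-culture and split evenly in co-culture. Under several other settings Chac1 passed as lower and Ppp1r15a as higher in mono-culture too. Aldh1l2, Atf5 and Cebpb passed as higher in co-culture under several other settings. Effects are given throughout as log2 fold changes. In mono-culture, 20 of the 38 members tested passed at an adjusted p under 0.05 (limma across all 7357 genes), 7 higher and 13 lower with Slc38a2 counted by its brightest probe, which is 52.6% of members against 38.7% of all genes tested (20.2% higher and 18.6% lower). In co-culture 10 passed, 2 higher and 8 lower, 26.3% of members against 27% of all genes (14.3% higher and 12.7% lower). Cth is counted as lower in both cultures, though no PLX4720 array detected it. The medians over members were -0.13 in mono-culture and -0.18 in co-culture on the log2 scale, against 0.01 over all genes in each. The arrays of the groups did not overlap for 9 members that were higher and 17 that were lower in mono-culture, where 71.5% of all genes did not overlap (36.6% higher and 34.9% lower). In co-culture it was 10 and 19, against 65.6% of all genes (33.1% and 32.5%). With 1 array of either compared group left out, fewer members passed in each culture, and so did fewer of all genes.

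**Figure D1:**
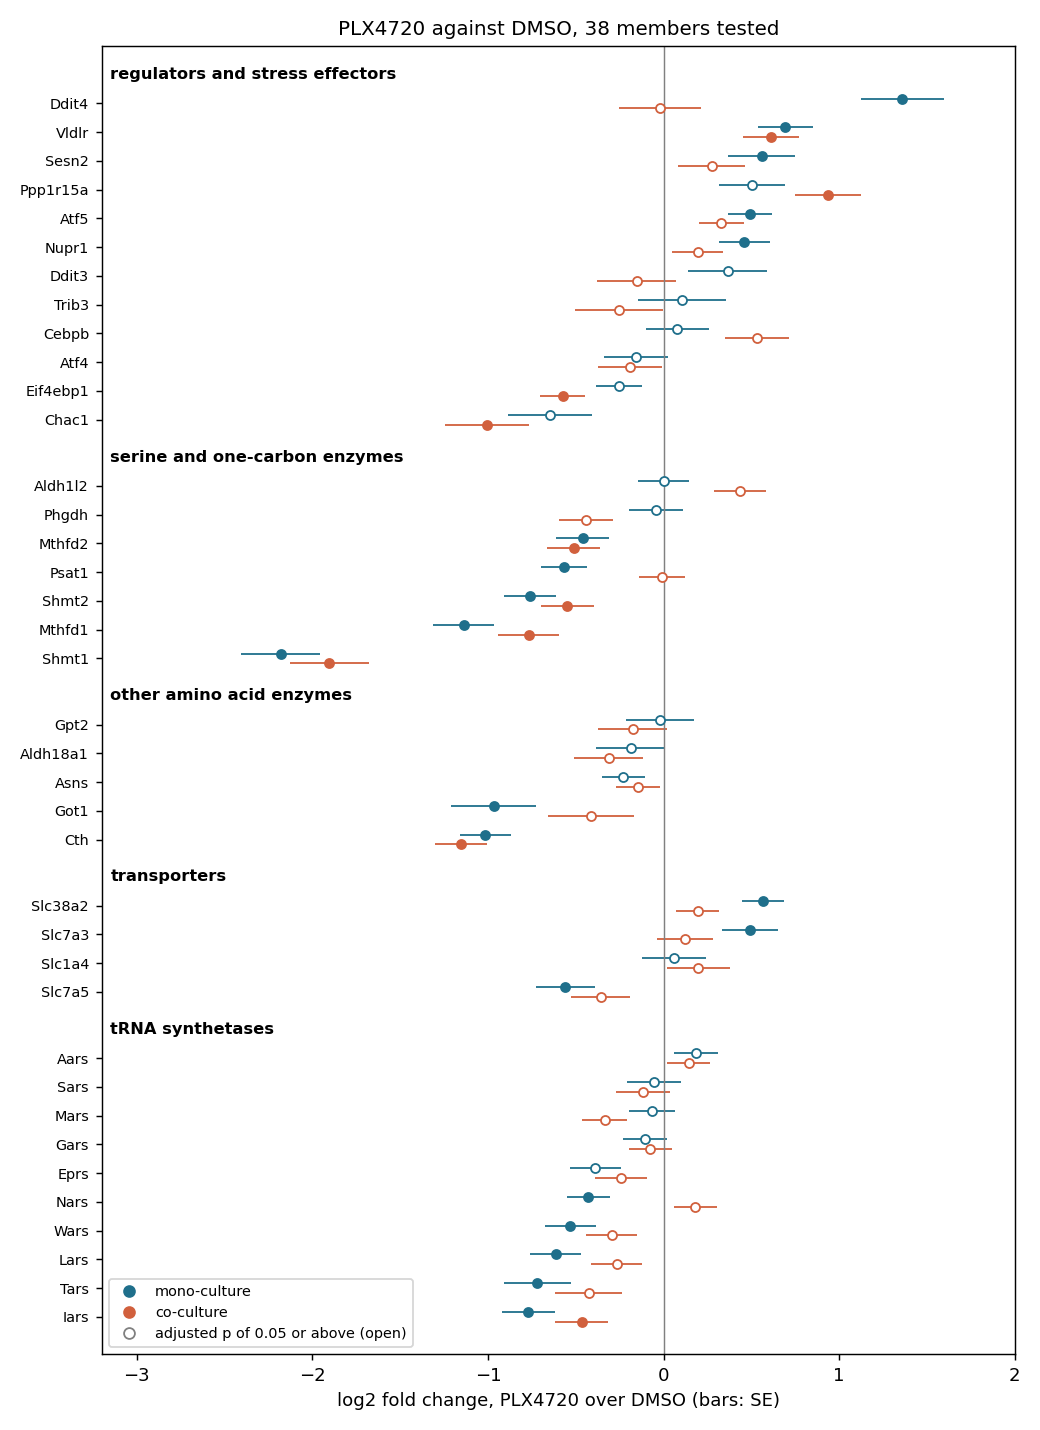
Log2 fold change with PLX4720 (x axis, points with SE bars) of the 38 members tested (y axis, by role) in mono-culture and co-culture, with filled points where the adjusted p was under 0.05. All 7 serine and one-carbon enzymes lie at or below 0 in mono-culture, and Shmt1 lies furthest from 0, at -2.18 and -1.90.

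Atf4 itself did not pass in any comparison. Its normalized log2 intensities were 10.88 and 10.37 in mono-culture with DMSO, 10.68 and 10.90 in co-culture with DMSO, 10.53 and 10.40 in mono-culture with PLX4720 and 10.72 and 10.47 in co-culture with PLX4720, and the groups overlapped in all 4 comparisons. With PLX4720 the log2 fold change was -0.16 in mono-culture, with a 95% interval of -0.566 to 0.251, and -0.19 in co-culture, with an interval of -0.602 to 0.215. The cultures differed by 0.16 (adjusted p = 0.761) in DMSO and 0.13 (adjusted p = 0.703) in PLX4720. Ddit3, which encodes the stress factor CHOP, gave 9.54 and 8.76 in mono-culture with DMSO, 9.03 and 8.85 in co-culture with DMSO, 9.57 and 9.46 in mono-culture with PLX4720 and 8.66 and 8.91 in co-culture with PLX4720. Its drug effect was 0.36 (adjusted p = 0.229) in mono-culture and -0.15 (adjusted p = 0.657) in co-culture, with overlapping arrays in both.

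Among the regulators and stress effectors, 5 of 12 rose with PLX4720 in mono-culture and none fell. The share that passed, 41.7%, was near the 38.7% of all genes (20.2% higher and 18.6% lower). In co-culture it was 33.3%, against 27%. The largest rise was that of Ddit4, which encodes REDD1, an inhibitor of mTORC1. Its log2 intensities were 8.72 and 8.88 in mono-culture with DMSO, 9.16 and 9.37 in co-culture with DMSO, 9.79 and 10.53 in mono-culture with PLX4720 and 9.04 and 9.45 in co-culture with PLX4720. Both mono-culture PLX4720 arrays lay above every other array, and the log2 fold change was 1.36 (SE 0.23, adjusted p = 0.0018). In co-culture the drug arrays overlapped the DMSO arrays, at -0.02 (adjusted p = 0.959).

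Vldlr, a lipoprotein receptor gene that ATF4 induces, rose in both cultures. Its values were 10.27 and 10.28 in mono-culture with DMSO, 9.35 and 9.30 in co-culture with DMSO, 10.77 and 11.17 in mono-culture with PLX4720 and 9.81 and 10.07 in co-culture with PLX4720, and no group overlapped another. The drug effect was 0.69 (SE 0.16, adjusted p = 0.00743) in mono-culture and 0.61 (SE 0.16, adjusted p = 0.0186) in co-culture. Other risers in mono-culture were Sesn2, an inhibitor of mTORC1 signalling, at 0.56 (adjusted p = 0.0417), Atf5, a factor related to ATF4, at 0.49 (adjusted p = 0.0132), and Nupr1, a stress-induced nuclear protein, at 0.46 (adjusted p = 0.0322). In co-culture these 3 genes stood at 0.27 (adjusted p = 0.322), 0.33 (adjusted p = 0.0843) and 0.19 (adjusted p = 0.363). Atf5 passed as higher there without background correction (0.31, adjusted p = 0.0258), with normexp (adjusted p = 0.0458) and with the authors' log2 values (adjusted p = 0.0258).

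Ppp1r15a, whose product GADD34 brings the phosphatase to eIF2, rose in co-culture. It gave 8.03 and 8.32 in mono-culture with DMSO, 8.38 and 8.33 in co-culture with DMSO, 8.83 and 8.53 in mono-culture with PLX4720 and 9.54 and 9.05 in co-culture with PLX4720, so that both PLX4720 groups lay above the DMSO groups. The log2 fold change was 0.94 (SE 0.19, adjusted p = 0.00568) in co-culture and 0.50 (SE 0.19, adjusted p = 0.0576) in mono-culture. In mono-culture Ppp1r15a passed as higher without background correction (0.38, adjusted p = 0.035), with normexp (adjusted p = 0.0272) and with the authors' log2 values (adjusted p = 0.0349). It also passed there with detection on all arrays (adjusted p = 0.0382) and with array weights (adjusted p = 0.0484). Chac1, a glutathione-degrading enzyme that the ATF4 branch induces, fell in co-culture, with values of 10.63 and 10.10 in mono-culture with DMSO, 10.64 and 10.73 in co-culture with DMSO, 10.09 and 9.35 in mono-culture with PLX4720 and 9.70 and 9.67 in co-culture with PLX4720. The PLX4720 arrays lay below the DMSO arrays in each culture, with an effect of -1.004 (SE 0.24, adjusted p = 0.013) in co-culture and -0.65 (SE 0.24, adjusted p = 0.0576) in mono-culture. Eif4ebp1, a repressor of cap-dependent translation, fell by 0.57 on the log2 scale in co-culture (adjusted p = 0.0101) and stood at -0.25 (adjusted p = 0.148) in mono-culture. Cebpb, a partner of ATF4, stood at 0.08 (adjusted p = 0.758) in mono-culture and 0.53 (adjusted p = 0.0557) in co-culture. In co-culture it passed as higher without background correction (0.51, adjusted p = 0.0166) and with normexp (adjusted p = 0.0163). It also passed with the authors' log2 values, detection on all arrays, the replicate block and array weights (adjusted p of 0.0166 to 0.0462). Trib3, a feedback inhibitor of ATF4, stood at 0.11 in mono-culture and -0.25 in co-culture.

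Leaving out each array in turn, the calls in mono-culture were lost for Vldlr without replicate 2 of mono-culture PLX4720 (adjusted p = 0.0546), for Sesn2 without replicate 1 of mono-culture DMSO or either mono-culture PLX4720 array (adjusted p of 0.092 to 0.229), for Atf5 without replicate 2 of mono-culture DMSO or replicate 1 of mono-culture PLX4720 (adjusted p of 0.0586 to 0.0737) and for Nupr1 without replicate 2 of mono-culture DMSO, either co-culture DMSO array or either mono-culture PLX4720 array (adjusted p of 0.0536 to 0.199). In co-culture they were lost for Vldlr without either co-culture DMSO array or replicate 2 of co-culture PLX4720 (adjusted p of 0.0824 to 0.103), for Chac1 without either co-culture DMSO array or either co-culture PLX4720 array (adjusted p of 0.0535 to 0.0705) and for Eif4ebp1 without replicate 2 of co-culture DMSO (adjusted p = 0.0849). The rises of Ddit4 in mono-culture and of Ppp1r15a in co-culture passed with any single array left out.

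Other settings ended the mono-culture calls of Nupr1 with median scaling (0.40, adjusted p = 0.0887), without the filter on dim probes (adjusted p = 0.0548) and with only the arrays compared (adjusted p = 0.0647), and of Sesn2 without the filter (adjusted p = 0.093) and with array weights (adjusted p = 0.0551). Without replicate 2 of mono-culture DMSO the effect of Nupr1 was 0.27, and that of Sesn2 was 0.31 without background correction or with the authors' log2 values. Chac1 passed as lower with PLX4720 in mono-culture too in 8 alternatives, with an effect of -0.58 (adjusted p = 0.0211) without background correction and with the authors' log2 values, -0.61 (adjusted p = 0.016) with normexp and -0.70 (adjusted p = 0.0412) with median scaling. It also passed with detection on all arrays (adjusted p = 0.0357), with the replicate block (adjusted p = 0.0334), and at -0.91 and -1.01 without replicate 2 of mono-culture DMSO and without replicate 1 of mono-culture PLX4720.

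**Figure D2:**
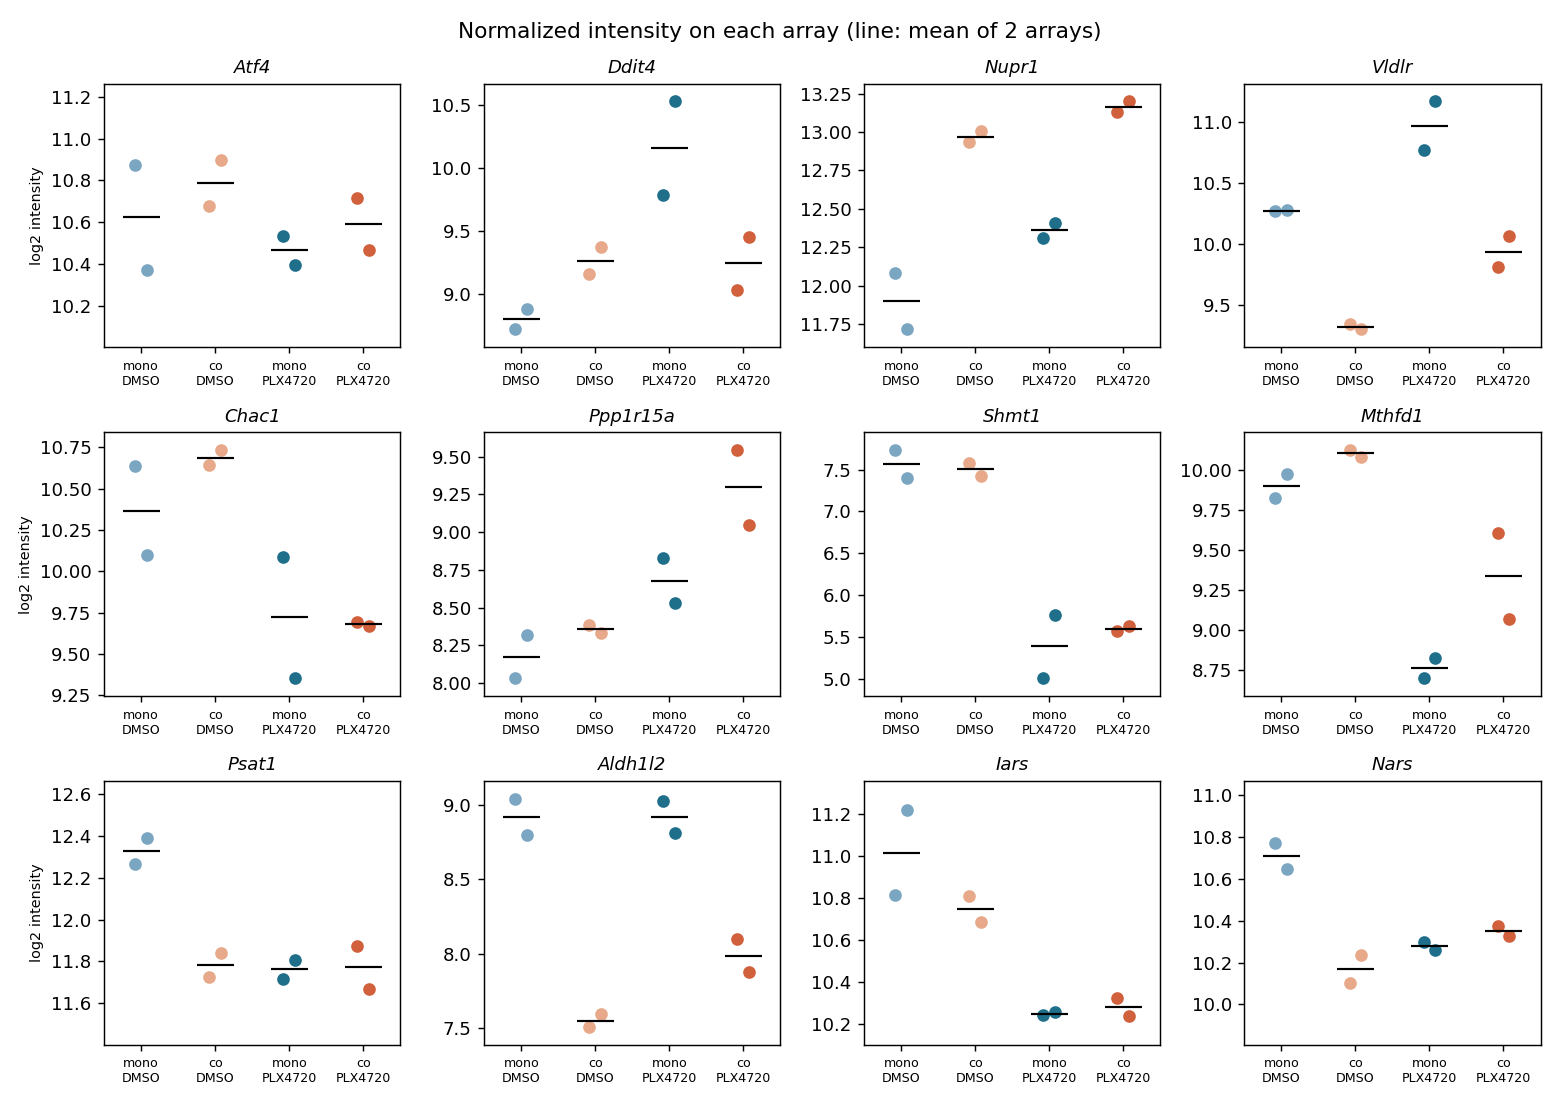
Normalized log2 intensity (y axis, own range for each gene) of 12 members on the 2 arrays of each group (x axis), with a line at the mean. Ddit4 is highest in mono-culture with PLX4720, Nupr1 is higher and Aldh1l2 lower in both co-culture groups, and Shmt1 is lower in both PLX4720 groups.

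Most serine and one-carbon enzymes were lower with PLX4720, though Aldh1l2 passed as higher in co-culture under several other settings. In the main fit 5 of 7 fell in mono-culture, 4 of 7 fell in co-culture, and none rose in either (71.4% and 57.1%). Of all genes, 38.7% and 27% passed, 18.6% and 12.7% as lower. The median log2 fold change over the 7 was -0.57 and -0.51, against 0.01 over all genes in each culture. Shmt1, the cytosolic serine hydroxymethyltransferase that moves a carbon from serine to folate, fell furthest. Its log2 intensities were 7.73 and 7.40 in mono-culture with DMSO, 7.58 and 7.43 in co-culture with DMSO, 5.005 and 5.77 in mono-culture with PLX4720 and 5.57 and 5.63 in co-culture with PLX4720. All 4 PLX4720 arrays lay below all 4 DMSO arrays, and in mono-culture with PLX4720 the probe was detected on 1 of 2 arrays. The log2 fold change was -2.18 (SE 0.23, adjusted p = 0.000126) in mono-culture and -1.90 (SE 0.23, adjusted p = 0.000386) in co-culture. Its size depended on the background correction: without one it was -0.98 and -0.88, with normexp -1.37 and -1.22, and it passed in each.

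Mthfd1, the trifunctional cytosolic folate enzyme, gave 9.83 and 9.98 in mono-culture with DMSO, 10.12 and 10.08 in co-culture with DMSO, 8.70 and 8.83 in mono-culture with PLX4720 and 9.61 and 9.07 in co-culture with PLX4720. Again all PLX4720 arrays lay below all DMSO arrays, with an effect of -1.14 (SE 0.17, adjusted p = 0.000973) in mono-culture and -0.77 (SE 0.17, adjusted p = 0.0105) in co-culture. Of the mitochondrial enzymes, Shmt2 and Mthfd2 fell too. Shmt2 gave 9.07 and 9.39 in mono-culture with DMSO, 8.83 and 8.92 in co-culture with DMSO, 8.35 and 8.58 in mono-culture with PLX4720 and 8.27 and 8.38 in co-culture with PLX4720, with a drug effect of -0.76 (SE 0.15, adjusted p = 0.0035) and -0.55 (SE 0.15, adjusted p = 0.0236). Mthfd2 fell by 0.46 on the log2 scale in mono-culture (adjusted p = 0.0363) and by 0.51 in co-culture (adjusted p = 0.032), and its drug arrays did not overlap the DMSO arrays in either.

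Of the serine synthesis enzymes, Psat1 fell in mono-culture. Phgdh passed with the drug in neither culture, but as lower in co-culture under several other settings. Psat1, the aminotransferase of that pathway, gave 12.27 and 12.39 in mono-culture with DMSO, 11.73 and 11.84 in co-culture with DMSO, 11.72 and 11.81 in mono-culture with PLX4720 and 11.87 and 11.67 in co-culture with PLX4720. The mono-culture DMSO arrays lay above those of the other groups, and the drug effect was -0.57 (SE 0.13, adjusted p = 0.00786) in mono-culture and -0.01 (SE 0.13, adjusted p = 0.97) in co-culture. Phgdh, the first enzyme, gave 11.16 and 11.23 in mono-culture with DMSO, 10.84 and 10.85 in co-culture with DMSO, 11.15 and 11.16 in mono-culture with PLX4720 and 10.63 and 10.18 in co-culture with PLX4720. Its drug effect did not pass in either culture, at -0.04 (adjusted p = 0.853) and -0.44 (adjusted p = 0.0617). In co-culture it passed as lower without background correction (-0.41, adjusted p = 0.0186), with normexp (adjusted p = 0.0231) and with the authors' log2 values (adjusted p = 0.0187). It also passed there with median scaling (adjusted p = 0.0419), detection on all arrays (adjusted p = 0.044) and array weights (adjusted p = 0.0478). Aldh1l2, the mitochondrial formyltetrahydrofolate dehydrogenase, stood at 0.00 (adjusted p = 1) and 0.44 (adjusted p = 0.0533) with the drug. In co-culture it passed as higher with normexp (0.35, adjusted p = 0.0423), with detection on all arrays (adjusted p = 0.0379) and with the replicate block (adjusted p = 0.0465).

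The falls of Shmt1, Mthfd1, Shmt2 and Psat1 in mono-culture and of Shmt1 in co-culture passed with any single array left out. The mono-culture call was lost for Mthfd2 without replicate 1 of mono-culture DMSO, either co-culture DMSO array or either mono-culture PLX4720 array (adjusted p of 0.06 to 0.237). In co-culture calls were lost for Mthfd1 without either co-culture DMSO array (adjusted p of 0.0534 to 0.065), for Shmt2 without either co-culture DMSO array or either co-culture PLX4720 array (adjusted p of 0.0566 to 0.132) and for Mthfd2 without either co-culture DMSO array or replicate 2 of co-culture PLX4720 (adjusted p of 0.134 to 0.141). The calls of Mthfd2 were also lost without the filter on dim probes, in mono-culture at an adjusted p of 0.065 and in co-culture at one of 0.0578, and the mono-culture call with only the arrays compared (adjusted p = 0.064). Without replicate 1 of mono-culture DMSO its mono-culture effect was -0.27, and without replicate 2 of co-culture PLX4720 the co-culture effect of Mthfd1 was -0.50.

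Of the other amino acid enzymes, Cth and Got1 fell in mono-culture and Cth in co-culture, of 5 tested. That is 40% and 20%, against 38.7% and 27% of all genes. Cth, cystathionine gamma-lyase, the last step to cysteine, gave 5.81 and 5.55 in mono-culture with DMSO, 6.06 and 6.31 in co-culture with DMSO, 4.66 and 4.67 in mono-culture with PLX4720 and 5.12 and 4.95 in co-culture with PLX4720. It was detected on all 4 DMSO arrays and on no PLX4720 array, so only a bound can be given. It was at least 1.10-fold lower in mono-culture and at least 1.52-fold lower in co-culture, measured against the lowest detected signal. Its probe was kept through the DMSO arrays alone, where it is high. Its adjusted p in limma (0.000681 and 0.000545) therefore rests on PLX4720 values below detection and is no separate support. Got1, the cytosolic aspartate aminotransferase, gave 6.65 and 6.703 in mono-culture with DMSO, 6.67 and 6.69 in co-culture with DMSO, 5.24 and 6.17 in mono-culture with PLX4720 and 6.34 and 6.19 in co-culture with PLX4720. The mono-culture PLX4720 arrays were low and apart from each other, and the probe was detected on 1 of those 2. Its drug effect was -0.97 (SE 0.24, adjusted p = 0.0121) in mono-culture and -0.41 (SE 0.24, adjusted p = 0.245) in co-culture.

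Asns, asparagine synthetase and a classical ATF4 target, gave 12.16 and 12.19 in mono-culture with DMSO, 11.74 and 11.80 in co-culture with DMSO, 11.90 and 11.99 in mono-culture with PLX4720 and 11.53 and 11.71 in co-culture with PLX4720. The PLX4720 arrays lay below the DMSO arrays in each culture, but the effect of -0.23 (adjusted p = 0.174) in mono-culture and -0.15 (adjusted p = 0.425) in co-culture did not pass, with 95% intervals of -0.507 to 0.05 and -0.425 to 0.132. Its second brightest probe fell by 0.39 on the log2 scale in mono-culture (adjusted p = 0.0494 over all probes) and stood at 0.07 in co-culture, and its dimmest stood at -0.34 and -0.21. Aldh18a1, which starts proline synthesis from glutamate, stood at -0.19 and -0.31, and Gpt2, the mitochondrial alanine aminotransferase, at -0.02 and -0.18, and neither passed. Without replicate 2 of mono-culture DMSO the mono-culture effect of Got1 was -0.94, and its call was lost. The mono-culture effect of Got1 was -0.37 without background correction, -0.55 with normexp and -0.50 without replicate 1 of mono-culture PLX4720, and passed in each.

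Among the 4 transporters tested, Slc7a3 rose and Slc7a5 fell with PLX4720 in mono-culture, Slc38a2 passed there with probes that disagreed, and none passed in co-culture. The mono-culture share was 75%, against 38.7% of all genes, and 27% of all genes passed in co-culture. Slc7a5, the large neutral amino acid transporter LAT1, gave 11.82 and 12.10 in mono-culture with DMSO, 11.40 and 11.41 in co-culture with DMSO, 11.27 and 11.53 in mono-culture with PLX4720 and 11.24 and 10.85 in co-culture with PLX4720. It fell by 0.56 on the log2 scale in mono-culture (SE 0.17, adjusted p = 0.0268) and stood at -0.36 (adjusted p = 0.15) in co-culture. Its partner chain Slc3a2 was detected on 1 of 8 arrays and was not tested. Slc7a3, a cationic amino acid transporter, rose by 0.49 (adjusted p = 0.035) in mono-culture and stood at 0.12 (adjusted p = 0.609) in co-culture, and Slc1a4, a neutral amino acid transporter, stood at 0.06 and 0.20. Leaving out arrays, the mono-culture calls were lost for Slc7a3 without either mono-culture DMSO array, either co-culture DMSO array or replicate 2 of mono-culture PLX4720 (adjusted p of 0.0517 to 0.229) and for Slc7a5 without replicate 2 of mono-culture DMSO or replicate 1 of mono-culture PLX4720 (adjusted p of 0.147 to 0.154). The call of Slc7a3 was also lost without background correction and with the authors' log2 values, both at 0.21 (adjusted p = 0.0948 and 0.0947), with normexp at 0.30 (adjusted p = 0.056), without the filter on dim probes (adjusted p = 0.0674) and with only the arrays compared (adjusted p = 0.067). Without replicate 2 of mono-culture PLX4720 its effect was 0.29. Without the filter Slc7a5 was lost too (adjusted p = 0.0566).

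Slc38a2, the sodium-coupled transporter SNAT2, gave 2 answers. Its brightest probe had values of 10.44 and 10.45 in mono-culture with DMSO, 10.76 and 10.83 in co-culture with DMSO, 10.92 and 11.10 in mono-culture with PLX4720 and 11.001 and 10.97 in co-culture with PLX4720, and rose by 0.57 (SE 0.12, adjusted p = 0.00569) in mono-culture. Its other detected probe fell there, by 0.62 on the log2 scale (adjusted p = 0.0403 in a fit over all probes). The mean of both probes gave -0.03. In co-culture the probes stood at 0.19 and 0.44, and neither passed. No direction is therefore given for this gene in mono-culture.

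The tRNA synthetases load each amino acid onto its tRNA. Of 10 tested, 5 fell with PLX4720 in mono-culture, 1 fell in co-culture, and none rose in either (50% and 10%). Of all genes, 38.7% and 27% passed, 18.6% and 12.7% as lower. The median log2 fold change was -0.41 and -0.25, against 0.01 over all genes in each culture. Iars, for isoleucine, gave 10.81 and 11.22 in mono-culture with DMSO, 10.81 and 10.68 in co-culture with DMSO, 10.24 and 10.26 in mono-culture with PLX4720 and 10.32 and 10.24 in co-culture with PLX4720. All PLX4720 arrays lay below all DMSO arrays, with an effect of -0.77 (SE 0.15, adjusted p = 0.00357) in mono-culture and -0.47 (SE 0.15, adjusted p = 0.0463) in co-culture. Tars, for threonine, fell by 0.72 on the log2 scale in mono-culture (adjusted p = 0.0146), Lars, for leucine, by 0.62 (adjusted p = 0.00816) and Wars, for tryptophan, by 0.53 (adjusted p = 0.017). In co-culture these 3 stood at -0.43 (adjusted p = 0.127), -0.27 (adjusted p = 0.198) and -0.30 (adjusted p = 0.163).

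Nars, for asparagine, fell in mono-culture. It gave 10.77 and 10.65 in mono-culture with DMSO, 10.10 and 10.24 in co-culture with DMSO, 10.30 and 10.26 in mono-culture with PLX4720 and 10.38 and 10.33 in co-culture with PLX4720, with the drug arrays below DMSO in mono-culture and above DMSO in co-culture. The effect was -0.43 (SE 0.12, adjusted p = 0.0203) in mono-culture and 0.18 (SE 0.12, adjusted p = 0.307) in co-culture, and their difference of 0.61 (SE 0.17, adjusted p = 0.138) did not pass. Aars, Gars, Mars and Sars lay between -0.11 and 0.18 in mono-culture and between -0.34 and 0.14 in co-culture, and Eprs, for glutamate and proline, at -0.39 and -0.24, and none of these passed. The mono-culture call of Iars passed with any single array left out. Calls in mono-culture were lost for Tars without replicate 1 of mono-culture DMSO or replicate 2 of mono-culture PLX4720 (adjusted p of 0.102 to 0.106), for Lars without replicate 1 of mono-culture PLX4720 (adjusted p = 0.053), for Wars without replicate 2 of mono-culture DMSO or either mono-culture PLX4720 array (adjusted p of 0.0579 to 0.112) and for Nars without replicate 1 of mono-culture DMSO or either mono-culture PLX4720 array (adjusted p of 0.0655 to 0.107). The co-culture call was lost for Iars without either co-culture DMSO array, either mono-culture PLX4720 array or either co-culture PLX4720 array (adjusted p of 0.0608 to 0.231), and also with the replicate block (adjusted p = 0.058) and without the filter on dim probes (adjusted p = 0.0813). The mono-culture effect of Tars was -0.35 without background correction or with the authors' log2 values, and that of Wars was -0.34 without replicate 2 of mono-culture DMSO.

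For 11 members more than 1 probe was detected. With PLX4720 in mono-culture all probes of a member pointed the same way in 9 of the 11, with Slc38a2 and Eprs as the exceptions, and in co-culture in 10 of 11, with Asns as the exception. Both probes of Shmt2 fell in both cultures. In co-culture the brightest probe of Wars was at -0.30 and did not pass, while its 3 dimmer probes fell by 0.49 to 0.73 on the log2 scale. The dimmer probe of Eprs fell by 0.90 there (adjusted p = 0.00304 over all probes), against -0.24 for the brightest.

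**Figure D3:**
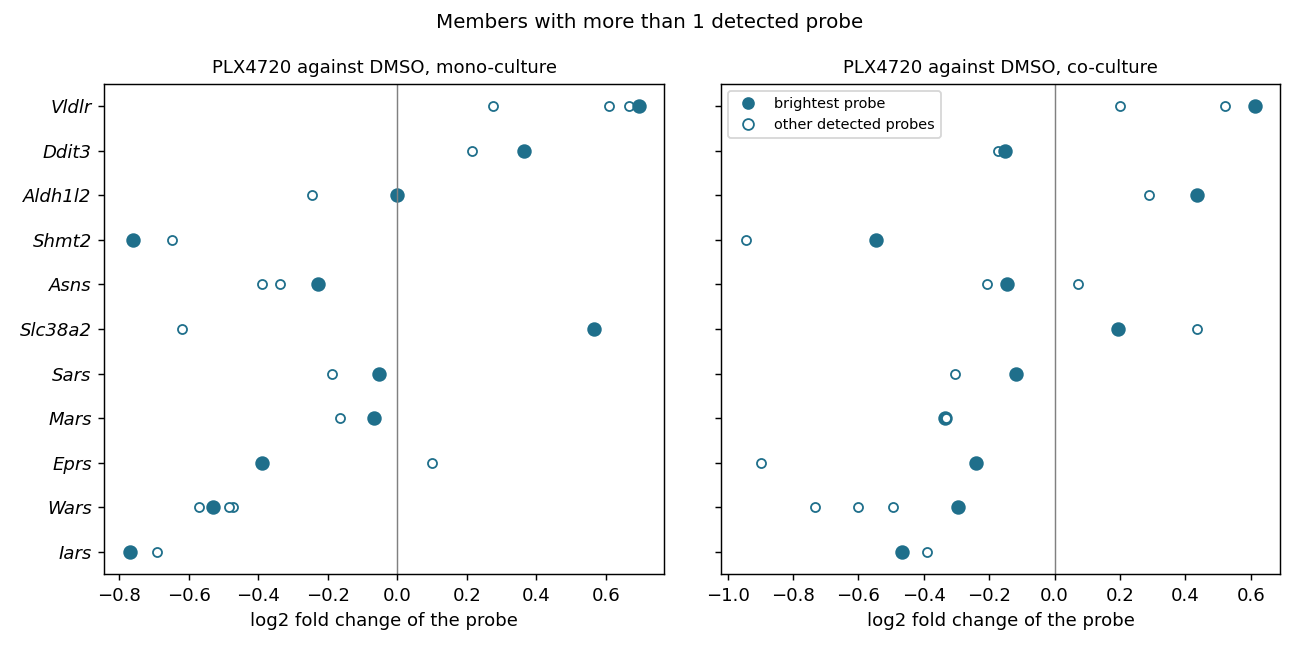
Log2 fold change with PLX4720 (x axis) of each detected probe of the 11 members with more than 1 (y axis), in mono-culture on the left and co-culture on the right, with the brightest probe filled. In mono-culture the probes of Slc38a2 lie on either side of 0, at 0.57 and -0.62.

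The drug effects in the cultures come from separate arrays. Across the 38 members, the log2 fold change in mono-culture and that in co-culture had a Pearson r of 0.793 and a Spearman rho of 0.803, against 0.785 and 0.707 across all 7357 genes, where genes are not independent replicates. The sign was the same for 33 of 38 members (86.8%) and for 75.2% of all genes. Of the members called, 7 of the 20 in mono-culture and 7 of the 10 in co-culture were the same genes, all with the same direction: Vldlr, Shmt1, Shmt2, Mthfd1, Mthfd2, Cth and Iars. That is 35% and 70% of the members called, against 50.4% and 72.3% of all genes called. Among these genes, Cth was detected on DMSO arrays only.

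**Figure D4:**
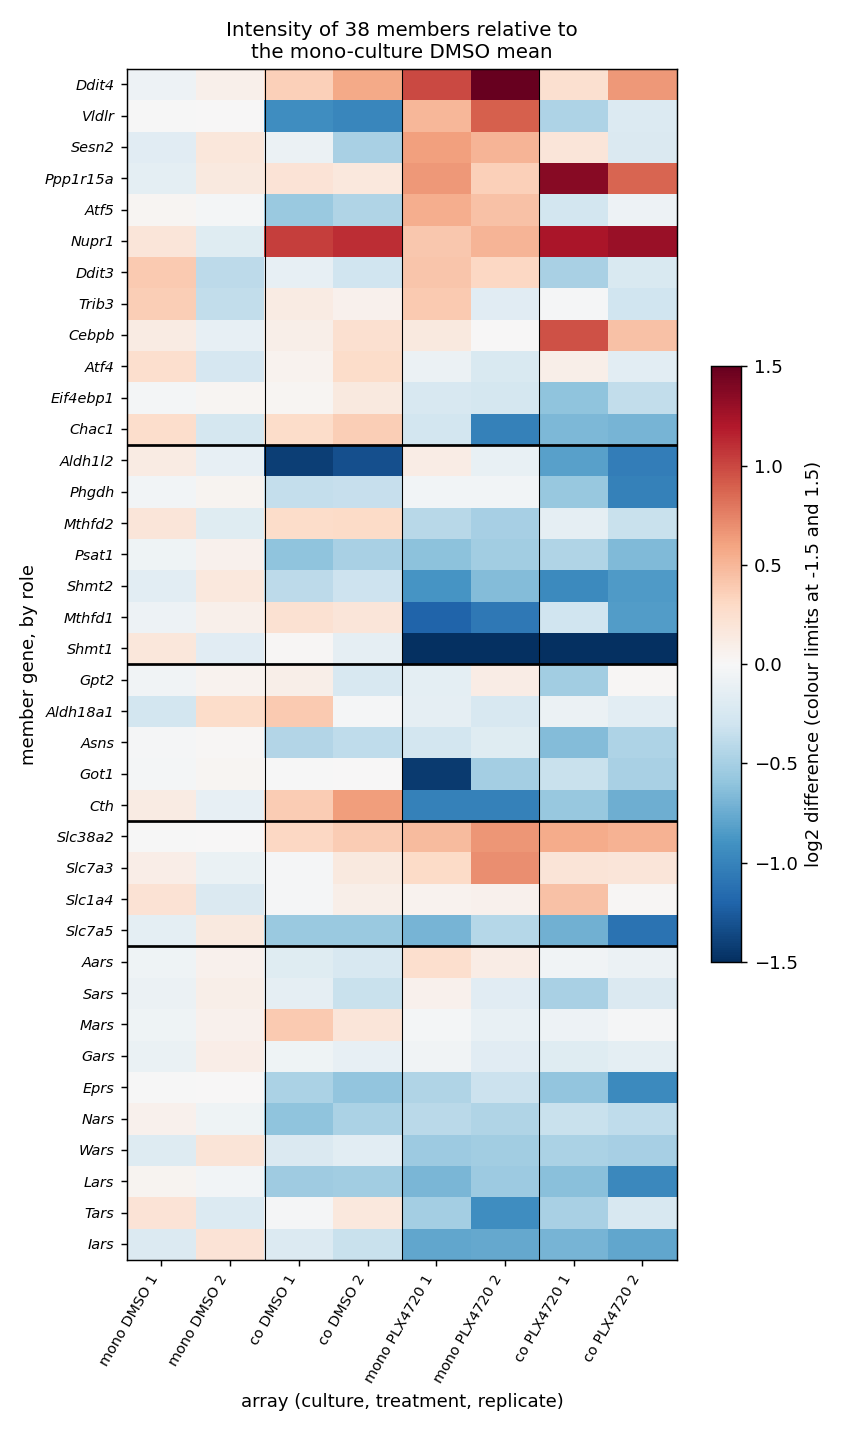
Log2 intensity of the 38 members (y axis, by role) on the 8 arrays (x axis), as the difference from the mean of mono-culture with DMSO, with red for higher and blue for lower. Shmt1 is at the colour limit of -1.5 on all 4 PLX4720 arrays, and Nupr1 is red on all 4 co-culture arrays.

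Between the cultures fewer members passed than with the drug, among them Nupr1, higher in co-culture, and Aldh1l2 and Vldlr, lower. In DMSO 3 of 38 passed, 1 higher and 2 lower, 7.89% of members against 1.66% of all genes tested (0.625% higher and 1.03% lower). In PLX4720 6 passed, 1 higher and 5 lower, 15.8% against 7.35% (3.89% higher and 3.47% lower). The arrays did not overlap for 10 members that were higher and 14 that were lower in co-culture, both in DMSO and in PLX4720, where 49.1% of all genes (25.2% higher and 23.9% lower) and 54.3% (27.5% and 26.8%) did not overlap. Aldh1l2, Nupr1 and Vldlr, 3 of the 3 and 3 of the 6, were called under both treatments, in the same direction, where over all genes it was 41 of the 122 called in DMSO and of the 541 called in PLX4720. Across the 38 members the culture effects in DMSO and in PLX4720, from separate arrays, had a Pearson r of 0.62 and a Spearman rho of 0.566 with 71.1% of the same sign, against 0.236, 0.163 and 55.5% across all genes. Gpnmb, the only melanocyte marker detected, passed as lower in co-culture in PLX4720, at -0.79 (adjusted p = 0.0346). In DMSO it stood at -0.33 (adjusted p = 0.455). Of the fibroblast markers, Acta2, Col3a1 and Col6a1 passed as lower in co-culture in DMSO and none passed in PLX4720. Col6a1 was detected on neither co-culture DMSO array. In DMSO 8 and 9 markers were detected on the co-culture arrays and 11 and 10 on the mono-culture arrays, with a mean log2 intensity of 6.24 and 6.20 against 6.49 and 6.51, while the summed signal was 6962 and 7362 against 6833 and 7764. Their part in the culture comparisons was not tested. Without either co-culture DMSO array fewer members were called in DMSO, as were fewer of all genes. The same held in PLX4720 without either mono-culture PLX4720 array or without replicate 1 of co-culture PLX4720.

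Nupr1 was the only member that passed as higher in co-culture, under either treatment, in the main fit. Under several other settings Mthfd1, Ppp1r15a and Cebpb did so in PLX4720. The log2 intensities of Nupr1 were 12.09 and 11.72 in mono-culture with DMSO and 12.93 and 13.01 in co-culture with DMSO. With PLX4720 they were 12.31 and 12.41 in mono-culture and 13.13 and 13.20 in co-culture. All 4 co-culture arrays lay above all 4 mono-culture arrays, by 1.07 (SE 0.15, adjusted p = 0.00673) in DMSO and 0.80 (SE 0.15, adjusted p = 0.0186) in PLX4720. Aldh1l2 was lower in co-culture, with 9.04 and 8.80 in mono-culture with DMSO, 7.51 and 7.60 in co-culture with DMSO, 9.03 and 8.81 in mono-culture with PLX4720 and 8.10 and 7.88 in co-culture with PLX4720. Again the cultures did not overlap, and the difference was -1.37 (SE 0.15, adjusted p = 0.00339) in DMSO and -0.93 (SE 0.15, adjusted p = 0.0111) in PLX4720. Its dimmer probe gave -0.88 in DMSO and -0.35 in PLX4720, and neither passed.

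Vldlr was lower in co-culture, at -0.95 (SE 0.16, adjusted p = 0.0192) in DMSO and -1.03 (SE 0.16, adjusted p = 0.00983) in PLX4720, and its 3 bright probes each passed. The drug and co-culture thus moved this gene in opposite directions, and the co-culture PLX4720 arrays lay between those of the DMSO groups. With PLX4720, Atf5 was lower in co-culture, with 11.36 and 11.31 in mono-culture with DMSO, 10.78 and 10.88 in co-culture with DMSO, 11.88 and 11.78 in mono-culture with PLX4720 and 11.06 and 11.26 in co-culture with PLX4720. The difference was -0.67 (SE 0.13, adjusted p = 0.0212), and -0.51 (SE 0.13, adjusted p = 0.0902) in DMSO. Ddit4 was lower, at -0.92 (SE 0.23, adjusted p = 0.0464) in PLX4720 and stood at 0.47 (adjusted p = 0.424) in DMSO. Phgdh was lower, at -0.75 (SE 0.15, adjusted p = 0.0273) in PLX4720 and stood at -0.35 (adjusted p = 0.348) in DMSO, where the arrays did not overlap either.

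The call of Aldh1l2 in DMSO passed with any single array left out, and the calls in DMSO were lost for Nupr1 without either co-culture DMSO array (adjusted p of 0.062 to 0.0851) and for Vldlr without either mono-culture DMSO array or either co-culture DMSO array (adjusted p of 0.0823 to 0.147). In PLX4720 calls were lost for Nupr1 without either mono-culture PLX4720 array or replicate 1 of co-culture PLX4720 (adjusted p of 0.0666 to 0.0899), for Aldh1l2 without replicate 1 of co-culture PLX4720 (adjusted p = 0.053), for Vldlr without replicate 2 of mono-culture PLX4720 or replicate 1 of co-culture PLX4720 (adjusted p of 0.0541 to 0.0762), for Atf5 without either mono-culture PLX4720 array or replicate 1 of co-culture PLX4720 (adjusted p of 0.0757 to 0.104), for Ddit4 without either mono-culture DMSO array, either co-culture DMSO array, replicate 2 of mono-culture PLX4720 or either co-culture PLX4720 array (adjusted p of 0.0521 to 0.24) and for Phgdh without either co-culture DMSO array or either mono-culture PLX4720 array (adjusted p of 0.0529 to 0.108). With only the arrays compared the calls in PLX4720 were also lost for Atf5 (adjusted p = 0.056), Ddit4 (adjusted p = 0.0724) and Phgdh (adjusted p = 0.0607). Without the filter on dim probes they were lost for Ddit4 (adjusted p = 0.112) and Phgdh (adjusted p = 0.0559), and in DMSO for Vldlr (adjusted p = 0.0545). The call of Ddit4 was also lost with array weights (adjusted p = 0.0855), and its difference was -0.54 without replicate 2 of mono-culture PLX4720. Members that did not pass here include Psat1 at -0.55 (adjusted p = 0.0786) in DMSO and 0.01 (adjusted p = 0.974) in PLX4720. Asns stood at -0.41 (adjusted p = 0.162) and -0.33 (adjusted p = 0.135), and Slc7a5 at -0.55 (adjusted p = 0.163) and -0.35 (adjusted p = 0.22). Ddit3 stood at -0.21 (adjusted p = 0.753) and -0.72 (adjusted p = 0.0824), and Chac1 at 0.32 (adjusted p = 0.614) and -0.04 (adjusted p = 0.937). Without background correction Psat1 (adjusted p = 0.012), Asns (adjusted p = 0.0387) and Slc7a5 (adjusted p = 0.0487) passed as lower in DMSO. Atf5, Eprs, Lars and Nars did so too. In PLX4720 Ddit3 (adjusted p = 0.0293) and Asns (adjusted p = 0.0445) passed as lower with that setting. Cebpb stood at 0.16 (adjusted p = 0.758) in DMSO and 0.62 (adjusted p = 0.071) in PLX4720. Ppp1r15a stood at 0.18 (adjusted p = 0.739) and 0.62 (adjusted p = 0.0764), and Mthfd1 at 0.20 (adjusted p = 0.671) and 0.57 (adjusted p = 0.0766). In PLX4720 they passed as higher without background correction, at adjusted p of 0.0194, 0.027 and 0.0294. They also passed with normexp, with the authors' log2 values and with detection on all arrays.

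**Figure D5:**
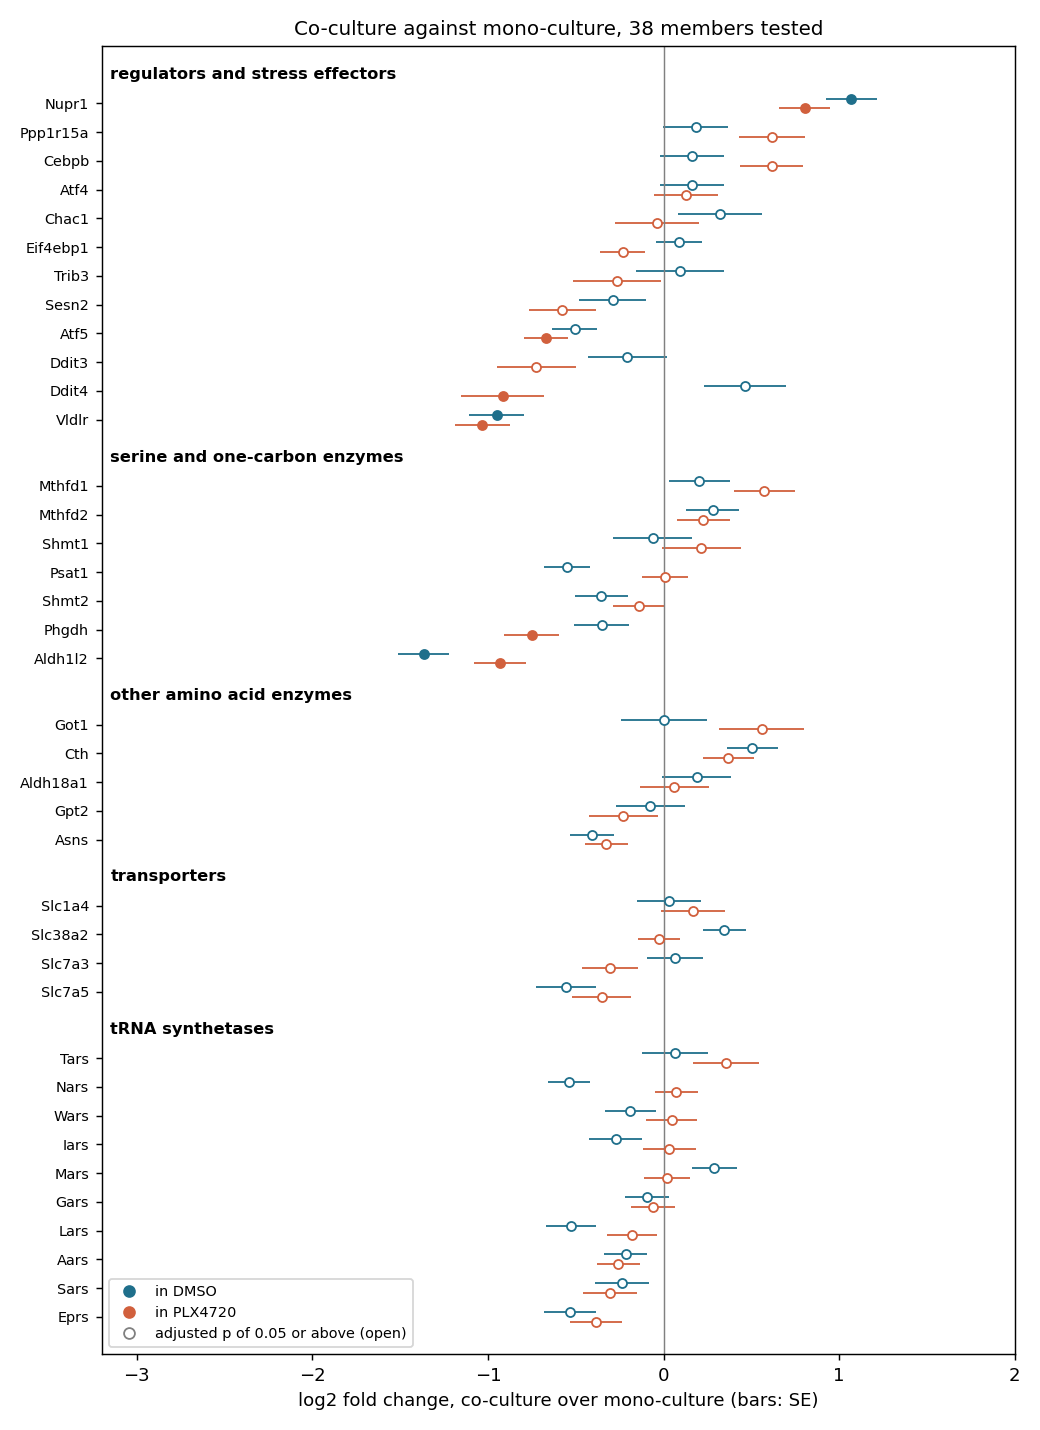
Log2 fold change of co-culture over mono-culture (x axis, points with SE bars) of the 38 members tested (y axis, by role), in DMSO and in PLX4720, with filled points where the adjusted p was under 0.05. Filled points are few: Nupr1 to the right of 0, and Vldlr, Aldh1l2, Atf5, Ddit4 and Phgdh to the left.

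Whether co-culture changed the response to PLX4720 was tested as the difference between the drug effects. None of the 38 members passed in limma, against 0.122% of all genes (0.0408% with a higher and 0.0816% with a lower effect in co-culture). At an unadjusted p under 0.05 there were 2 members with a higher and 1 with a lower effect in co-culture. Of the 7357 genes tested, 635 and 582 were so, a larger share than among the members. The lower one was Ddit4, whose effect was smaller in co-culture, with a difference of -1.38 (SE 0.33, adjusted p = 0.0928) with a 95% interval of -2.13 to -0.64. Its adjusted p was under 0.05 with other background corrections, with the authors' log2 values, with the replicate block, where it was 0.0459, and without replicate 1 of mono-culture PLX4720. The higher ones were Psat1 at 0.56 (adjusted p = 0.19) and Nars at 0.61 (adjusted p = 0.138).

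Members without a test were 8 whose probes were each detected on at most 1 of 8 arrays and 2 without a named probe. The former were Psph, the last enzyme of serine synthesis, Cbs, the first enzyme from homocysteine to cysteine, the transporters Slc7a1, Slc3a2 and Slc1a5, the synthetases Cars and Yars, and Cebpg, a partner of ATF4. The probe of Slc3a2 and each of the 2 probes of Slc1a5 were detected on 1 array, and the probes of the others on 0. The latter were Mthfd1l and Pycr1. No level is given for these genes, and a dim probe does not show that the gene is silent.

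Genes of the same pathways outside the 48 were described by lists chosen by role, and those named with values were chosen after their values were seen. Of 9 other cytosolic synthetases and scaffold proteins tested, 4 fell with PLX4720 in mono-culture, 5 fell in co-culture, and none rose in either (44.4% and 55.6%, where 38.7% and 27% of all genes passed). Rars, for arginine, was at -1.17 (adjusted p = 0.000164) and -0.98 (adjusted p = 0.000621), and Eef1e1, a scaffold protein of the synthetase complex, at -1.51 (adjusted p = 9.98e-05) and -0.71 (adjusted p = 0.00756). Of 10 mitochondrial synthetases, 1 rose and 2 fell in mono-culture (30%, against 38.7%) and none passed in co-culture, where 27% of all genes did. Of 7 other folate and one-carbon genes, 2 rose and 4 fell in mono-culture (85.7%, against 38.7%) and 3 fell in co-culture (42.9%, against 27%). Among them Tyms, thymidylate synthase, was at -1.47 (adjusted p = 0.000407) and -0.64 (adjusted p = 0.0329), and Gart, an enzyme of purine synthesis, at -1.26 (adjusted p = 0.00046) and -0.998 (adjusted p = 0.00233).

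Among 6 other amino acid transporters, 3 rose and 1 fell in mono-culture (66.7%, against 38.7% of all genes), and 2 rose and 1 fell in co-culture (50%, against 27%). The one that fell was Slc7a11, the cystine importer xCT, with 8.59 and 8.001 in mono-culture with DMSO, 5.95 and 5.99 in co-culture with DMSO, 5.70 and 5.49 in mono-culture with PLX4720 and 4.94 and 4.62 in co-culture with PLX4720. It was lower with the drug in each culture and lower in co-culture in DMSO, and no group overlapped another. In PLX4720 the co-culture values were below detection. The mono-culture values there were near the lowest detected signals of those arrays, 5.53 and 5.55, so no culture difference is given in PLX4720. The drug effect in mono-culture was -2.70 (SE 0.20, adjusted p = 2.27e-05), where 1 of 2 PLX4720 arrays detected its probe, and the difference between co-culture and mono-culture was -2.32 (SE 0.20, adjusted p = 0.00143) in DMSO. No array of co-culture with PLX4720 detected it, so there it was at least 1.31-fold lower than in co-culture with DMSO (adjusted p = 0.00233). The glycine transporter Slc6a9 rose by 1.19 (adjusted p = 0.000334) and 1.12 (adjusted p = 0.000699).

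Of 8 other ATF4 targets, 3 rose and 1 fell in mono-culture (50%, against 38.7% of all genes), and 2 rose and 2 fell in co-culture (50%, against 27%). Atf3, a stress-induced factor, rose by 1.03 (adjusted p = 0.0151) and 0.95 (adjusted p = 0.029), and Stc2, a secreted stanniocalcin, stood at -1.96 (adjusted p = 5.86e-05) and -1.80 (adjusted p = 0.000123). Of 14 genes of the other endoplasmic reticulum stress branches, 1 rose and 5 fell in mono-culture (42.9%, against 38.7%), and 1 rose and 4 fell in co-culture (35.7%, against 27%). Of 8 genes for eIF2 kinases and eIF2B, 1 rose and 2 fell in mono-culture, and 2 rose and 1 fell in co-culture (37.5% in each, against 38.7% and 27% of all genes).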

How the data were processed

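RNA of 8 samples in 4 groups of 2 was measured on Illumina mouse BeadChip arrays. The authors deposited mean bead intensities, not normalized, each with its detection p-value, and also log2 values in a separate table, for which the labels name lumi without a version. These log2 values equal quantile-normalized intensities without background subtraction, within 0.0047. Here the intensities were corrected with the negative controls inferred from the detection p-values, quantile normalized and log2 transformed with neqc of limma 3.58.1 in R 4.3.3, at an offset of 16. Probes with a detection p below 0.01 in 2 or more of the 8 arrays were retained, and the brightest of them represented a gene. Probes were named from the platform annotation and updated by gene identifier. Group means of all 8 arrays were fitted with lmFit and eBayes, leaving 4 residual degrees of freedom to which the prior added 5.49, and p was adjusted by Benjamini-Hochberg over 7357 genes, at a threshold of 0.05. A fold against a group without detection is a lower bound. The fit was tested on simulated data. Members, lists and tests were chosen with earlier results of these data known. Named with values were members that passed, a few chosen by role, and up to 4 of each role with the smallest p with the drug. Alternatives were the authors' log2 values, median scaling, normexp at an offset of 50, background left uncorrected, other filters and probe choices, a replicate block, array weights, fewer arrays and the methods' t-test, a Student's test of each gene. The number of arrays limits the precision.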

Additional observations from a re-analysis of the deposited data

How the results depend on the processing

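Of the counts of members called with PLX4720, those of mono-culture stayed between 15 and 22 and those of co-culture between 8 and 15 under other background corrections, scalings, filters, probe choices, weights and sets of arrays. The Student's t-test of each gene, run on 2 arrays a group, called 0 members in each of the 4 comparisons. Over all genes it called 0 and 7 with PLX4720 in mono-culture and co-culture, and 0 between the cultures under each treatment. Its counts therefore say little about the members. Its unadjusted p was under 0.05 for 2 higher and 9 lower members with PLX4720 in mono-culture (1173 and 1068 of all genes). In co-culture it was 3 and 9 (981 and 969). Between the cultures it was 2 higher and 9 lower in DMSO (440 and 431) and 2 higher and 4 lower in PLX4720 (479 and 418). For co-culture in DMSO the count was 10 without background correction, 7 with normexp, 10 with the authors' log2 values and 7 with array weights, in place of 3 (2.87%, 2.79%, 2.85% and 3.32% of all genes, in place of 1.66%). In PLX4720 it was 11, 10 and 11 with the first 3 of these, 10 with detection on all arrays and 3 with only the arrays compared, in place of 6 (12.1%, 11.6%, 12.1%, 10.5% and 2.58% of all genes, in place of 7.35%). For the difference of drug effects it was 1 without background correction, with normexp, with the authors' log2 values and with the replicate block, in place of 0 (1.29%, 2.01%, 1.29% and 0.707% of all genes, in place of 0.122%). That member was Ddit4, with an adjusted p of 0.0375, 0.0241, 0.0376 and 0.0459, and of 0.048 without replicate 1 of mono-culture PLX4720. With single arrays left out the counts ranged from 12 to 22 and from 3 to 10 for the drug in the mono-culture and the co-culture, from 1 to 3 and from 1 to 8 for co-culture in DMSO and in PLX4720, and from 0 to 1 for the difference. The labels mark the arrays of replicate 1 with A and those of replicate 2 with B. Deviations from the group means correlated between groups at -0.08 to 0.09, with no clear shift shared by replicate number. With 2 arrays a group this does not settle whether the arrays were paired by design. With the replicate block the counts were 21 and 11 for the drug (38.3% and 26.1% of all genes), and 3 and 6 for co-culture (1.58% and 7.22%). The cause of these shifts was not tested. Among the 39 results of members that passed, 1 changed direction under any alternative, that of Slc38a2 in mono-culture, at -0.026 with the mean of probes. Of the named results that did not pass, these changed direction with an array left out, over the log2 ranges given. With PLX4720 in mono-culture they were Atf4 -0.41 to 0.0951, Aldh1l2 -0.12 to 0.12, Ddit3 -0.0265 to 0.75, Trib3 -0.26 to 0.48, Aldh18a1 -0.46 to 0.0903, Slc1a4 -0.16 to 0.28, Mars -0.14 to 0.0039, Sars -0.17 to 0.064, Cebpb -0.0493 to 0.21 and Gpt2 -0.15 to 0.11. With PLX4720 in co-culture they were Ddit4 -0.23 to 0.18, Psat1 -0.11 to 0.0922, Slc1a4 -0.0127 to 0.41, Sars -0.25 to 0.0193 and Gpt2 -0.45 to 0.096. For co-culture in DMSO they were Ddit3 -0.60 to 0.18 and Atf4 -0.0898 to 0.42, and in PLX4720 Chac1 -0.41 to 0.33 and Psat1 -0.0931 to 0.11. With 2 arrays a group, and with Shmt1, Got1 and Cth at or near the detection limit under PLX4720, the size of small or dim changes is poorly fixed.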
